A study of Mus musculus with 5 samples.

Results

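Marked promoter-flanking Runx3-bound regions are sites where Runx3 was bound near an annotated transcript start, though not right at it, on chromatin that carried H3K4me1. Such a start can also lie inside a gene. They were taken as the regions of the Runx3 peak list whose centre lay at least 1 kb and under 5 kb from the nearest annotated transcription start site (TSS) and that shared at least 1 bp with a region of the H3K4me1 peak list. Of 9135 Runx3-bound regions, 1029 met both conditions. Their centres lay upstream of the nearest TSS in 519 and downstream of it in 510. The regions they are compared with are the 550 Runx3-bound regions of the same distance class without H3K4me1 (unmarked flanking regions), the 480 marked regions under 1 kb from a TSS and the 3725 marked regions at 5 kb or more.

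ChIP-seq had been carried out on splenic CD8+ T cells (CD8-TC) of ICR mice, selected with anti-CD8 beads. The cells had been activated through the T cell receptor for 2 days and then grown for 4 days with 100 u/ml IL-2, and all libraries shared this treatment. The labels list 2 libraries with anti-Runx3 antibody, 2 with non-immune rabbit serum (NIS) as control and 1 with anti-H3K4me1 antibody, while their protocol speaks of 2 repeats for both antibodies, so the number of libraries behind the H3K4me1 list is not known. Peaks had been called once for each antibody on joined reads, and the lists hold positions only. There is therefore no replicate error and no peak height, the read depth of a region is unknown, and no test between samples was possible. The 95% intervals given are Wilson intervals for shares and Newcombe intervals for differences of shares, for counting error among regions only, and neighbouring regions are not independent of each other. Marked promoter-flanking regions lay next to the TSS of 2 of 6 T cell marker genes (Cd8a and Cd3d), of 1 of 6 myeloid markers (Itgam) and of 0 of 6 B cell, 0 of 4 erythroid and 0 of 6 non-immune markers. Over all protein-coding genes the share was 3.33% (740 of 22208), so lists of 4 to 6 genes are too short to compare cell types. Binding sites near a marker do not measure its expression.

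Runx3 is a transcription factor of the RUNX family that binds short DNA motifs and is highly expressed in cytotoxic lymphocytes. Monomethylation of lysine 4 of histone H3 (H3K4me1) is typical of enhancers and also of the shoulders of active promoters, whereas the nucleosomes next to the TSS of an active promoter tend to carry the trimethylated form. The sequence just outside a promoter is thus a place where promoter shoulders and nearby enhancers meet, upstream in intergenic DNA or a neighbouring gene and downstream mostly in the first introns.

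The canonical RUNX motif has 4 forms, namely TGTGGT, the variant TGTGGC with another last base, and, with a CpG inside, TGCGGT and the variant TGCGGC. The following windows of mm9 show it in 12 of the marked promoter-flanking regions, taken from the gene lists below, 11 next to genes of T cell function and 1, Itgam, next to a marker of other cell types. Each window spans 27 bases on either side of the RUNX motif nearest to the centre of the region, is written 5′ to 3′ on the strand on which that motif reads as above, and has RUNX motifs of either strand in capitals. In all 12 the centre of the region lay in an intron of the named gene.
Plcg1, chr2:160571386-160571445, + strand: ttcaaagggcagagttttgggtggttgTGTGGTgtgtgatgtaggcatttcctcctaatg
Il12rb1, chr8:73335439-73335498, - strand: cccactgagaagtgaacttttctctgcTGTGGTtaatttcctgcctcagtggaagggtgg
Prdm1, chr10:44182037-44182096, - strand: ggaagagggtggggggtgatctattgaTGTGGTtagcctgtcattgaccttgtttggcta
Gzmm, chr10:79154794-79154853, - strand: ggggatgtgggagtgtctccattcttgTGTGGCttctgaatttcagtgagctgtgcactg
Itgae, chr11:72908344-72908403, + strand: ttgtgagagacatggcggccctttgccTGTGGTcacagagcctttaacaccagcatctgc
Tnfrsf9, chr4:150295453-150295512, - strand: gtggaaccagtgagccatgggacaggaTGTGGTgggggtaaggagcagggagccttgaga
Smad3, chr9:63588537-63588596, + strand: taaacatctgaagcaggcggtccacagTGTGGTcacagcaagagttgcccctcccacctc
Traf1, chr2:34808628-34808687, - strand: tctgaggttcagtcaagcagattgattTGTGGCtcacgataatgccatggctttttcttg
Itgam, chr7:135263465-135263524, + strand: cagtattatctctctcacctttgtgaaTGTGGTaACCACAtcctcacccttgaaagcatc
Ctla4, chr1:60968605-60968664, + strand: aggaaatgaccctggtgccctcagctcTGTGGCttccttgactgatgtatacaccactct
Stat5b, chr11:100685421-100685480, + strand: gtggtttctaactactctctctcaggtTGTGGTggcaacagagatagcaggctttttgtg
Nfkb1, chr3:135328833-135328892, + strand: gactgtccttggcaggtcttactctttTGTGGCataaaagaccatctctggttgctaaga
The motif was TGTGGT in 8 of these windows and TGTGGC in 4. In the Itgam window a second RUNX motif on the other strand followed after 1 base. The motif lay 6 bp from the centre of the Ctla4 region and 17 bp in Tnfrsf9, but 188.5 bp in Itgae, whose region was 1069 bp wide.

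The first question was how the marked regions were divided between both sides of the TSS. The upstream share was 50.4% (47.4 to 53.5%). Of all mm9 sequence 1 to 5 kb from its nearest TSS 48.5% lay upstream, and of the H3K4me1-marked part of that sequence 45.9%. Per Mb of H3K4me1-marked sequence there were 131 marked Runx3-bound regions upstream and 109 downstream. These counts include the 183 marked regions whose centre lay outside the mark. Of the Runx3-bound regions without H3K4me1 in the same distance class 45.1% lay upstream, which was 5.35 percentage points less than among the marked ones (0.173 to 10.5). The upstream share was 60.6% among marked regions under 1 kb from a TSS and 46.9% among those at 5 kb or more.

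At 1 to 2 kb from the TSS, Runx3-bound regions carried H3K4me1 more often upstream than downstream. Over the whole distance class 67.7% of 767 upstream regions (64.3 to 70.9%) and 62.8% of 812 downstream regions (59.4 to 66.1%) were marked, a difference of 4.86 points (0.157 to 9.52). From 2 kb on the order was turned, with 69.0% upstream and 70.1% downstream, a difference of −1.16 points (−6.76 to 4.43). Between 1 and 2 kb from the TSS, 177 of 271 upstream regions (65.3%, 59.5 to 70.7%) were marked but only 130 of 270 downstream regions (48.1%, 42.3 to 54.1%), a difference of 17.2 points (8.83 to 25.2). Further out the sides could not be told apart. At 2 to 3 kb 68.1% and 65.1% were marked upstream and downstream, with a difference of 2.99 points (−6.25 to 12.1). At 3 to 4 kb the shares were 71.0% and 72.7%, with a difference of −1.71 points (−11.4 to 7.97). At 4 to 5 kb they were 68.0% and 73.9%, with a difference of −5.91 points (−15.9 to 4.14).

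**Figure D1:**
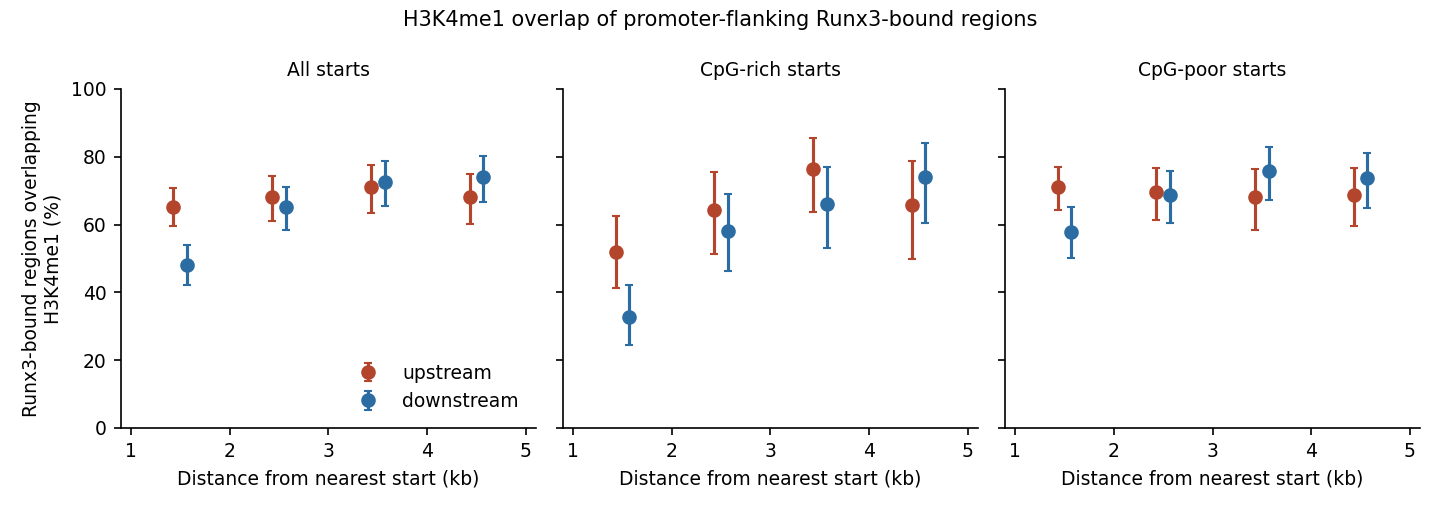
Share of promoter-flanking Runx3-bound regions that overlap H3K4me1 (%), by distance from the nearest TSS in steps of 1 kb, upstream (red) and downstream (blue), for all starts and for CpG-rich and CpG-poor starts. Points are shares and bars 95% Wilson intervals. At 1 to 2 kb the upstream share is the higher one in each panel, and from 2 kb on the intervals of both sides overlap.

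The sides had like amounts of marked sequence in that first kb, as 3.21% of upstream and 3.18% of downstream sequence at 1 to 2 kb lay in H3K4me1-marked regions. Runx3 binding there amounted to 6.20 regions per Mb upstream and 5.87 downstream. Marked Runx3-bound regions, again with those whose centre lay outside the mark, numbered 126 per Mb of H3K4me1-marked sequence upstream and 88.8 downstream. Unmarked ones numbered 2.22 per Mb of sequence outside the mark upstream and 3.14 downstream. Further from the TSS the downstream density of marked regions was above its 88.8 at 1 to 2 kb, with 111 at 2 to 3 kb, 117 at 3 to 4 kb and 129 at 4 to 5 kb. The upstream density was higher than the downstream one at each of these distances, with 129, 134 and 140.

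CpG-rich starts, taken as those with an observed to expected CpG ratio over 0.6 within 500 bp, include most promoters in CpG islands, which are typical of broadly expressed genes. They were the nearest start of 28.5% of marked (25.8 to 31.3%) and 39.3% of unmarked flanking regions, a difference of −10.8 points (−15.7 to −5.90). Upstream the difference was −6.34 points (−13.5 to 0.575), with an interval that included 0, and downstream −14.4 points (−21.1 to −7.53). At 1 to 2 kb from CpG-rich starts 42 of 81 upstream (51.9%) and 34 of 104 downstream regions (32.7%) were marked, a difference of 19.2 points (4.84 to 32.6). At the same distance from CpG-poor starts 135 of 190 upstream (71.1%) and 96 of 166 downstream regions (57.8%) were marked, a difference of 13.2 points (3.27 to 22.9). The excess upstream was thus present next to both kinds of start. Over the whole class the difference was 9.997 points at CpG-rich starts (1.37 to 18.4) and 1.73 points at CpG-poor starts (−3.82 to 7.26). The 2 differences were not compared by a test.

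The starts themselves were of different kinds on both sides. Upstream regions lay next to the most 5′ start of a protein-coding gene in 247 cases (47.6%), next to an internal start of such a gene, that is the start of a shorter transcript, in 179 (34.5%) and next to a non-coding gene or pseudogene in 93 (17.9%). Downstream regions lay next to the most 5′ start in 122 cases (23.9%), an internal start in 279 (54.7%) and a non-coding start in 109 (21.4%). All 179 regions upstream of an internal start lay inside the gene that the start belonged to, so that "upstream" there does not mean outside the gene. This follows from the assignment to the nearest start, since outside the gene the most 5′ start would be nearer. The internal starts were a median of 32601 bp from the most 5′ start of their gene for upstream regions and 4162 bp for downstream regions. Downstream, 116 of the 279 internal starts (41.6%) were under 1 kb from the most 5′ start of their gene. Such starts cannot occur upstream, where the most 5′ start would be the nearer one. Of the 6 combinations of side and start, the marked share was highest upstream of internal starts (78.2% of 229, 72.4 to 83.0%) and lowest downstream of most 5′ starts (56.2% of 217, 49.6 to 62.7%). Upstream of most 5′ starts it was 64.8% (59.9 to 69.5%) and downstream of internal starts 62.3% (57.7 to 66.6%), with overlapping intervals. At non-coding starts it was 59.2% upstream (51.4 to 66.6%) and 74.1% downstream (66.5 to 80.5%).

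By gene structure, 46.8% of upstream and 78.2% of downstream centres lay in an intron, and 50.1% and 13.1% in intergenic sequence. Exons held few of them. Upstream 0.771% and downstream 2.35% lay in coding exons, 1.16% and 3.33% in untranslated regions, and 1.16% and 2.94% in exons of non-coding transcripts. The 67 downstream regions in intergenic sequence lay beyond the 3′ end of a short gene or transcript. Id3 and Nfkbia are examples among the named genes.

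Marked regions were somewhat wider than unmarked ones, and a wider region meets the 1 bp overlap rule more easily. The part of that rule in the difference was not tested. The median width of Runx3-bound regions was 535 bp upstream (182 to 1821) and 521.5 bp downstream (236 to 1382), against 478 bp for unmarked flanking regions. The H3K4me1-marked region around them had a median width of 1913 bp upstream and 2128 bp downstream (628 to 10652 over both sides). In all, 993 H3K4me1-marked regions held the 1029 Runx3-bound regions, and 34 of them held 2 or more.

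The centre of most marked regions lay inside the mark, and the rule had chosen these regions for overlap with it. How much of the values below follows from that rule was not tested. The centre lay inside an H3K4me1-marked region in 83.8% of upstream and 80.6% of downstream regions, a difference of 3.23 points (−1.45 to 7.90), and 62.6% of all 1029 lay wholly inside. From the centre to the edge of the mark on the side of the TSS the median was 959 bp, and to the far edge 1030.5 bp. At 500 bp from the centre 80.8% of regions were covered by the mark toward the TSS and 85.9% away from it. Coverage on the far side only was seen in 195 regions and coverage on the TSS side only in 142. The split was 88 against 72 upstream and 107 against 70 downstream. At 1000 bp the mark covered both sides in 406 of the 1029 regions, only the far side in 251 and only the TSS side in 204. At the centre itself coverage (82.2%) was a little lower than 250 bp away from it on either side (84.0% toward the TSS and 88.0% away from it). Around unmarked flanking regions the mark covered 10% of positions 1500 bp toward the TSS and 16.9% at 1500 bp on the far side.

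**Figure D2:**
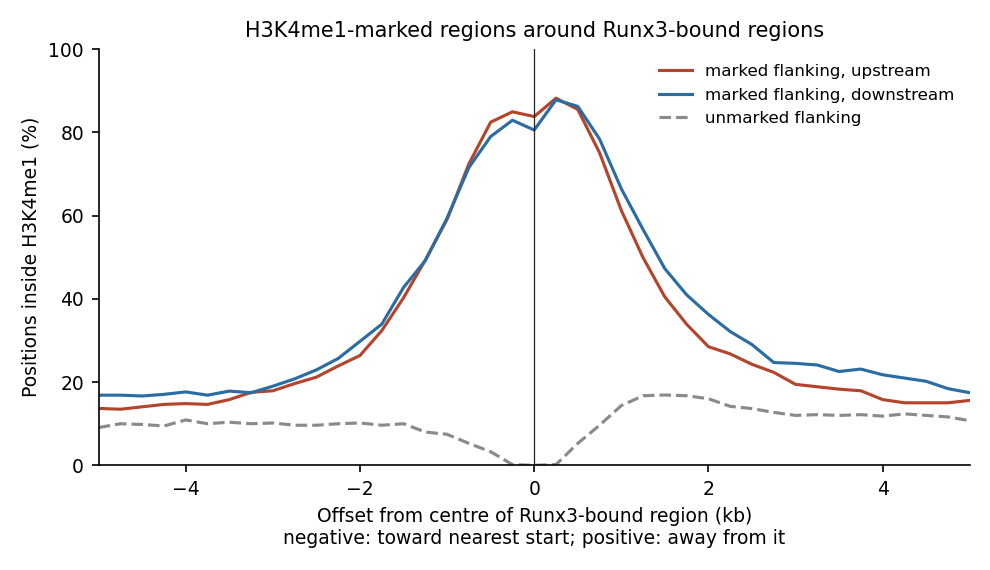
Share of Runx3-bound regions (%) with an H3K4me1-marked region at each offset from their centre (kb), negative toward the nearest TSS and positive away from it, for marked flanking regions upstream (red, 519) and downstream (blue, 510) and for unmarked flanking regions (grey, 550). Coverage is above 80% within 250 bp of the centre and slightly lower at the centre than 250 bp to either side. The dip to 0 of the grey line follows from how unmarked regions were chosen. The red and blue lines are of regions chosen for overlap with the mark.

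In most cases the mark ended before the TSS. Only 110 of 1029 regions (10.7%) shared one H3K4me1-marked region with their TSS, 52 upstream and 58 downstream. Some H3K4me1-marked region covered the TSS in 20.2% of cases (17.9 to 22.8%), with 20.04% upstream and 20.4% downstream. That share was 4.91% for unmarked flanking regions, 50.2% for marked regions under 1 kb and 7.36% for those at 5 kb or more. Seen from the TSS, starts with a marked region upstream were covered by H3K4me1 in 61.5% of cases at 2 kb upstream, 48.6% at 1 kb upstream and 20.2% at the TSS, and in 13.1% at 1 kb downstream. Starts with a marked region downstream had 20.5% at the TSS, 37.0% at 1 kb downstream and 63.0% at 3 kb downstream, and 19.4% at 1 kb upstream. At 1 kb the mark covered more of these starts on the side of Runx3 than on the other. The starts were chosen for a marked region on the former side. Of all sequence 1 to 2 kb from a TSS, 3.21% upstream and 3.18% downstream lay in the mark. That sequence surrounds all annotated starts, whereas these starts were chosen for a mark nearby. The shares on the other side are also of a single offset, so the 2 kinds of value cannot be compared directly.

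**Figure D3:**
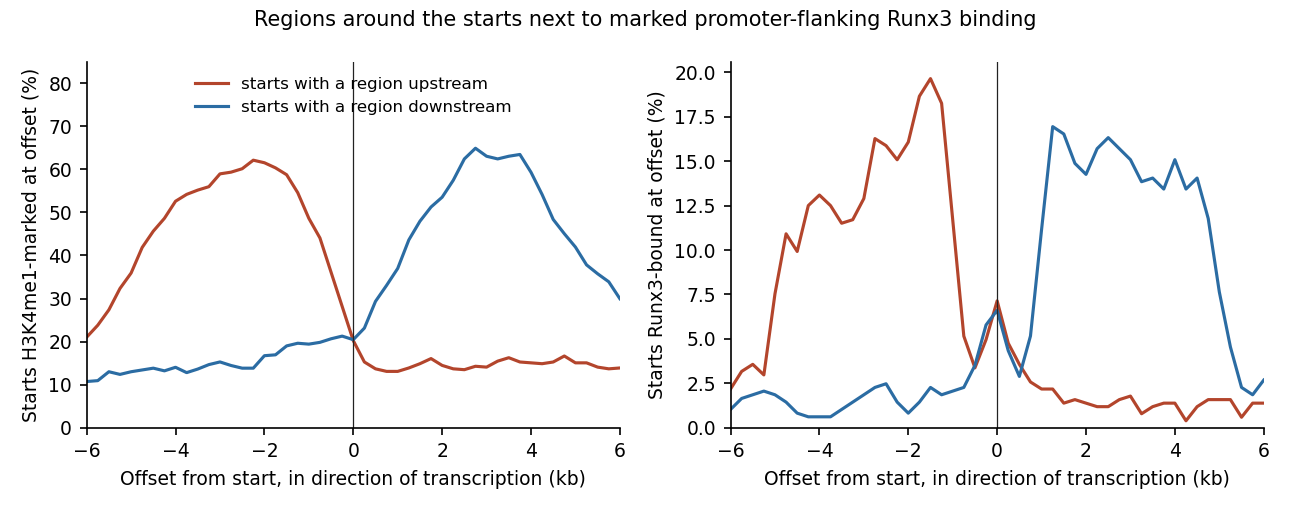
Share of starts (%) that lie in an H3K4me1-marked region (left) or a Runx3-bound region (right) at each offset from the TSS, in the direction of transcription (kb), for 504 starts with a marked Runx3-bound region upstream (red) and 484 with one downstream (blue). The high shares between 1 and 5 kb follow from how regions were chosen. The values at the TSS and on the other side are not free of that choice. The chosen mark also covers the TSS for 110 of the 1029 regions, and 11 starts have marked regions on both sides. Runx3 covers the TSS of 7.14% of the first and 6.61% of the second set.

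Runx3 bound again near some of these starts. Another Runx3-bound region lay under 1 kb from the same TSS in 133 cases (12.9%, 11.0 to 15.1%), with 13.1% upstream and 12.7% downstream, and in 13.8% for unmarked flanking regions, a difference of −0.893 points (−4.57 to 2.53). At CpG-rich starts the share was 19.8% (15.6 to 24.7%) and at CpG-poor starts 10.2% (8.21 to 12.6%). A further Runx3-bound region of any class lay within 5 kb of 27.2% of upstream and 34.9% of downstream regions, a difference of −7.73 points (−13.3 to −2.08). Of 977 starts with a marked region, 49 had 2 or more and 11 had them on both sides.

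RUNX motifs did not differ detectably between both sides of the TSS. Within the central 200 bp a RUNX motif on either strand was found in 417 of 519 upstream regions (80.3%, 76.7 to 83.5%) and 422 of 510 downstream regions (82.7%, 79.2 to 85.8%), a difference of −2.40 points (−7.13 to 2.35). It was found in 77.8% of unmarked flanking regions, 77.5% of marked regions under 1 kb and 81.2% of those at 5 kb or more. For comparison, sequence 1 to 5 kb from a TSS was cut into 200 bp tiles, without those that overlapped a Runx3-bound region. Of these tiles 26.6% held a RUNX motif, and of those inside H3K4me1-marked regions 32.9%. Over the whole Runx3-bound region 94.7% had a RUNX motif, and the one nearest to the centre lay at a median of 35.25 bp from it. One motif in the central window was found in 437 regions, 2 in 274, 3 in 107 and none in 190.

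Of the 4 forms, TGTGGT was found in 61.8% of upstream and 62.2% of downstream regions (18.2% of H3K4me1-marked tiles), and TGTGGC in 27.6% and 32.7% (15.3% of tiles), with a difference between the sides of −5.19 points (−10.8 to 0.415). The forms with a CpG were rarer. TGCGGT was found in 9.83% upstream and 9.02% downstream (1.75% of tiles) and TGCGGC in 3.08% and 5.49% (1.55% of tiles). TGCGGT was less frequent in marked than in unmarked flanking regions (9.43% against 14.5%, difference −5.12 points, −8.71 to −1.79), and both sides had it, with −5.90 points upstream (−11.4 to −0.977) and −4.56 downstream (−9.40 to −0.144). GGGCGG was also less frequent, the core of the Sp1 site of CpG-rich promoters (7.58% against 11.5%, difference −3.87 points, −7.15 to −0.888), with −6.02 points upstream (−11.3 to −1.39) and −2.21 downstream (−6.47 to 1.56). The share next to CpG-rich starts was lower for marked than for unmarked regions, as given above, and its part in both of these differences was not tested.

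ETS factors bind GGAA cores and are partners of RUNX proteins in lymphocytes. An ETS motif, searched as AGGAAA in one form, AGGAAG in another, and likewise CGGAAA in the third form or CGGAAG in the fourth, on either strand, was found in 69.4% of upstream and 69.2% of downstream regions, a difference of 0.148 points (−5.47 to 5.77). The share was 65.8% in marked regions under 1 kb and 68.5% in those at 5 kb or more. In unmarked flanking regions the share was 61.6%, which was 7.65 points below that of all marked flanking ones (2.75 to 12.6). By side the difference was 10.9 points upstream (3.67 to 18.2) and 4.98 points downstream (−1.66 to 11.7), the latter with an interval that included 0. Of H3K4me1-marked tiles 46.7% held an ETS motif. An ETS and a RUNX motif that did not overlap and lay at most 50 bp apart were found in 42.8% of marked and 34.4% of unmarked flanking regions (difference 8.40 points, 3.35 to 13.3) and 9.50% of tiles. This difference was 6.71 points upstream (−0.709 to 13.8) and 9.89 points downstream (2.95 to 16.6), and whether the sides differed in it was not tested. The ETS-RUNX pair was found in 40.8% of marked regions under 1 kb and 42.2% of those at 5 kb or more. A pair of RUNX motifs at this spacing was found in 28.8% of marked and 24.7% of unmarked regions (difference 4.04 points, −0.591 to 8.49) and 3.58% of tiles. The AP-1 motif (TGACTCA or TGAGTCA), bound by Jun and Fos dimers that are induced on T cell activation, was found in 8.09% upstream, 7.84% downstream, 6.91% of unmarked regions and 4.39% of tiles. For each of these motifs and pairs the interval of the difference between upstream and downstream included 0.

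**Figure D4:**
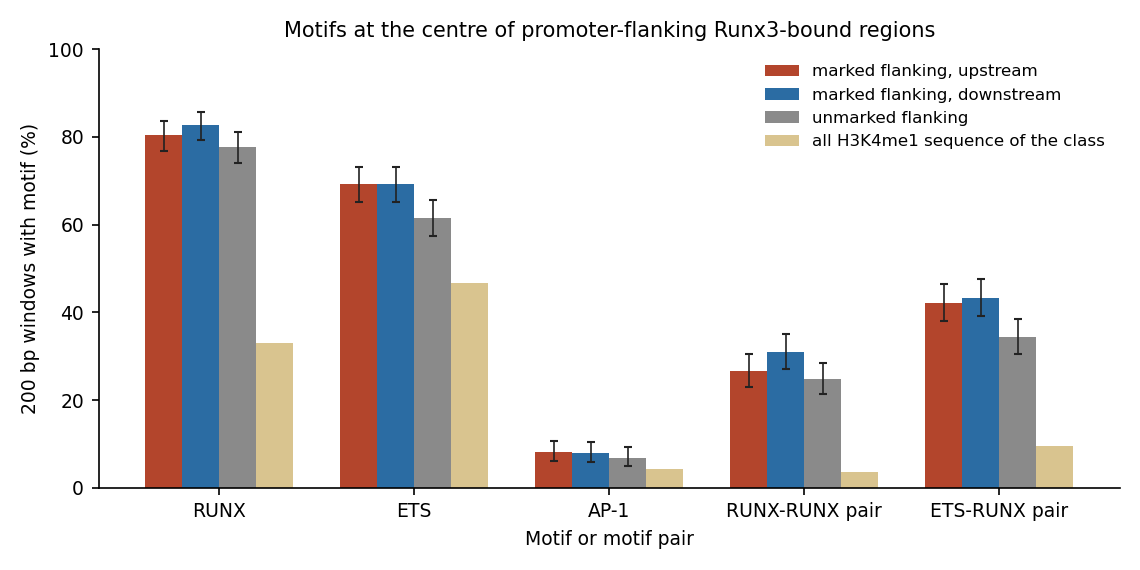
Share of 200 bp windows (%) with each motif or motif pair, at the centre of marked flanking regions upstream (red, 519) and downstream (blue, 510) and of unmarked flanking regions (grey, 550). Sand columns are 200 bp tiles inside H3K4me1 at 1 to 5 kb from a TSS that overlap no Runx3-bound region (39882). Bars on columns are 95% Wilson intervals. The intervals of red and blue columns overlap for each motif, and all columns of Runx3-bound regions stand above the tiles.

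The 183 marked regions whose centre lay outside the mark, at its edge or in a gap, were wider (median 628 bp against 516 bp) and lay at narrower H3K4me1-marked regions (1663 bp against 2075.5 bp). A RUNX motif was found in 74.9% of them (68.1 to 80.6%) and in 83.0% of the 846 others (80.3 to 85.4%). For TGTGGT the shares were 51.9% (44.7 to 59.0%) and 64.2% (60.9 to 67.3%). With overlap required, a centre outside the mark itself favours wide Runx3-bound regions and narrow marks. The central 200 bp are also a smaller part of a wider region, and the effect of this on the motif shares was not tested.

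The nearest starts belonged to 740 protein-coding genes of 22208 annotated, or 3.33%. An upstream region was next to 398 of them (1.79% of all genes) and a downstream region next to 372 (1.68%), and 30 genes had both. Of the 1029 regions 202 lay next to a non-coding start. Genes with many annotated starts have more sequence in reach of a start, which was not adjusted for, so the counts below are given beside these shares and not as enrichment.

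Of 32 genes of T cell receptor signalling, 9 had a marked promoter-flanking region, 4 upstream and 6 downstream. Plcg1, phospholipase C gamma 1, which cleaves a membrane lipid after receptor engagement, had 3, all downstream of internal starts, at 2.11, 2.755 and 4.59 kb. The mark around the last of them was 10601 bp wide and also covered the start. Ctla4, an inhibitory receptor that competes with CD28, had a region 1.29 kb upstream of one internal start, wholly inside a mark of 873 bp, and another 2.61 kb downstream of a second, with 24.6% of its width marked. Csk, the kinase that holds Lck inactive, had 2 regions upstream of its most 5′ start, at 1.19 and 2.08 kb, in the same H3K4me1-marked region of 1417 bp. Cd3d, a subunit of CD3, had one 4.86 kb downstream with its centre in an untranslated region of the gene.

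Of 32 genes of cytokine receptors and JAK-STAT signalling, 8 had a marked region, 3 upstream and 7 downstream. Stat5b, which carries the IL-2 signal to the nucleus, had a region 1.63 kb upstream of an internal start (657 bp wide, wholly inside a mark of 4840 bp) and one 3.33 kb downstream of the same start (516 bp, wholly inside a separate mark of 4026 bp). Il12rb1, a chain of the IL-12 receptor, had one 1.61 kb upstream of its most 5′ start, in intergenic sequence, and one 3.06 kb downstream of an internal start. Stat3 had one at 2.33 kb and Il21r, the receptor of IL-21, one at 4.04 kb, both in introns downstream of internal starts.

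Among 49 transcription factor genes 6 had a marked region. Prdm1, which encodes Blimp-1, a transcriptional repressor needed for terminal effector differentiation, had 2 upstream regions, one intergenic at 4.13 kb from its most 5′ start and one at 3.56 kb from an internal start. Runx1 had an 872 bp region 3.95 kb downstream of an internal start, wholly inside a mark of 6929 bp. Nfkb1, the p105 precursor of NF-kB p50, had a region of 1109 bp at 1.86 kb downstream of an internal start. It straddled the edge of the mark (51.8% of its width covered). Id3, an inhibitor of E proteins, had one 2.90 kb downstream of an internal start, beyond the end of the gene.

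Cytotoxic effectors and chemokines had marked regions upstream only, at 6 of 28 genes and with 0 downstream. Gzmb, granzyme B, had one of 542 bp at 4.09 kb, wholly inside a mark of 1518 bp. The chemokines Ccl4 and Ccl5 had theirs at 4.97 and 4.68 kb, and the Ccl5 region held 4 RUNX motifs in its central 200 bp. Gzmm, granzyme M, had one at 1.65 kb upstream of an internal start. With 6 genes, the upstream position is a description of these genes and was not tested.

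Smaller numbers were found in the other lists. Of 27 homing and adhesion genes 3 had a marked region. Itgae, the alpha chain of the integrin CD103, had one of 1069 bp at 4.10 kb downstream, the chemokine receptor Cxcr3 one at 3.16 kb upstream and Ccr2 one at 1.58 kb upstream, whose mark of 3306 bp also covered the TSS. Of 19 costimulatory and inhibitory receptors 2 had one. Tnfrsf9, the costimulatory receptor 4-1BB, had a region on each side, 2.62 kb upstream of an internal start and 1.17 kb downstream of another, in separate H3K4me1-marked regions. For Cd27 the region, 4.76 kb upstream, lay within the neighbouring gene Vamp1.

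Of 28 genes of proliferation and metabolism 6 had a marked region. Smad3, which transmits TGF-beta signals, had one 1.36 kb upstream of its most 5′ start and one 2.57 kb downstream of an internal start. Fhl2 had one 1.08 kb upstream, wholly inside a mark of 1841 bp, and Inpp4b, a phosphatase acting on inositol lipids, one at 1.45 kb upstream of an internal start. In Ccnd3, which encodes cyclin D3, the region at 3.08 kb downstream only touched the mark, with 4.92% of its width covered. Of 20 survival and NF-kB genes 3 had one. Traf1 had a region 1.26 kb upstream of its most 5′ start and one 4.93 kb downstream of an internal start. Bcl2l1, which encodes the survival factor Bcl-xL, had one 2.60 kb downstream of an internal start, in a mark of 5595 bp that covered that start. Nfkbia, the NF-kB inhibitor, had one at 3.84 kb downstream, beyond the end of the gene. Of 22 markers of other cell types 1 had a region, Itgam, the alpha chain of CD11b, at 3.48 kb downstream of an internal start.

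**Figure D5:**
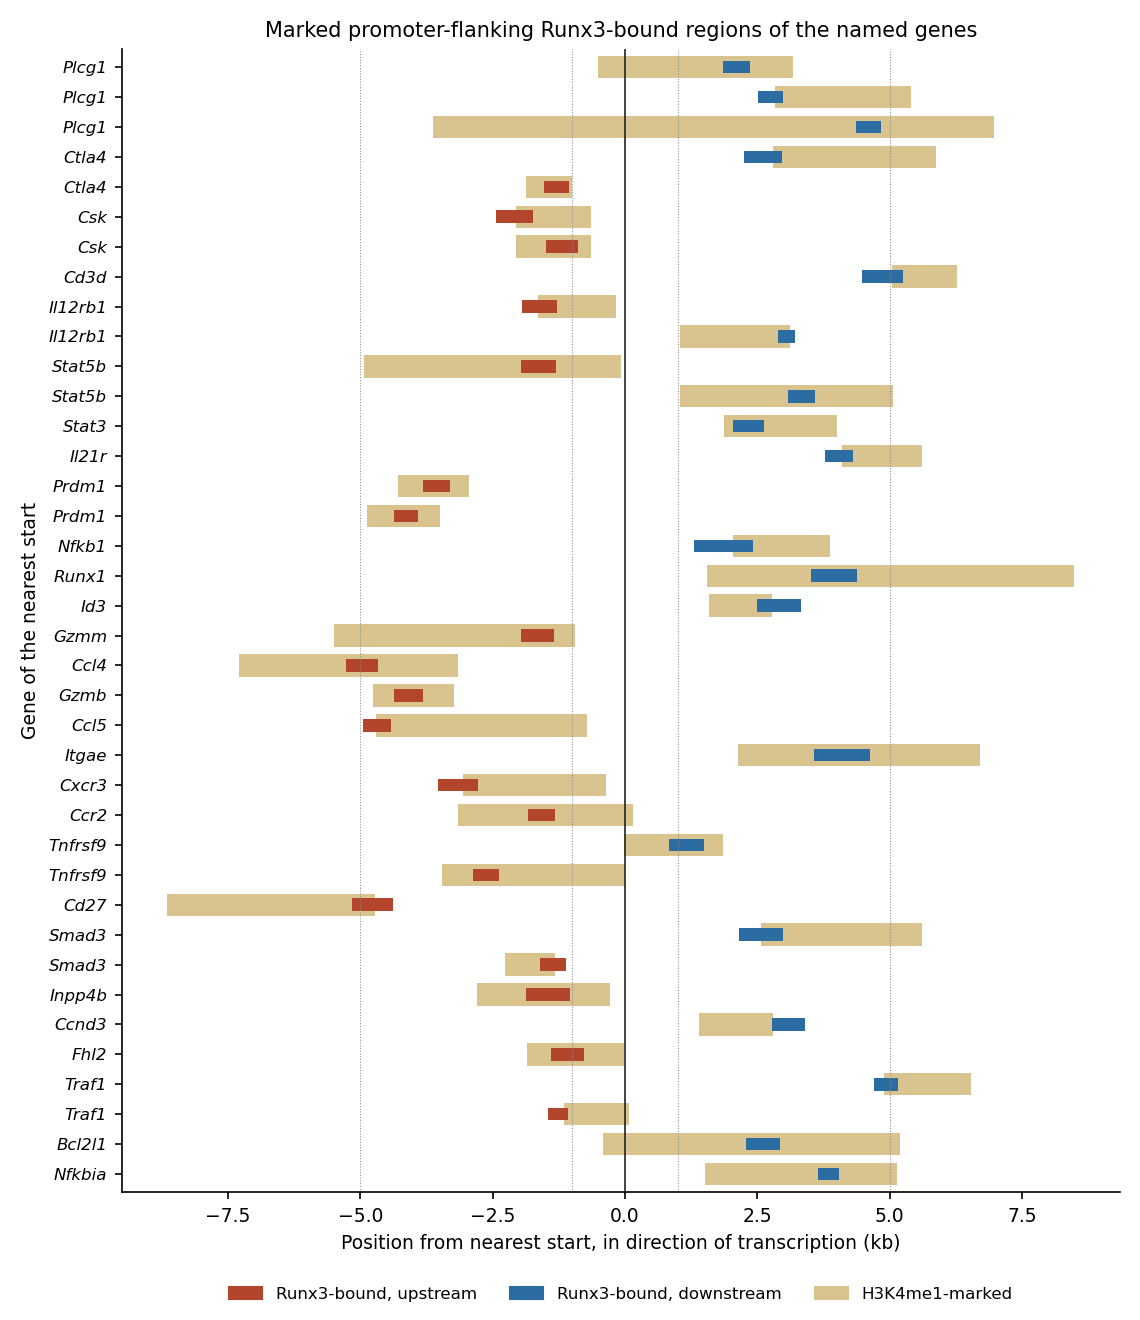
Marked promoter-flanking Runx3-bound regions of the named genes, 1 row per region, drawn to scale relative to the nearest start (0) in the direction of transcription (kb). Narrow bars are Runx3-bound regions upstream (red) and downstream (blue), wide sand bars the H3K4me1-marked region that shares most bases with each, and dotted lines the limits at 1 and 5 kb. The mark reaches the start in few rows, among them Bcl2l1 and Ccr2, and the 4 cytotoxic effector and chemokine genes shown have their regions to the left of the start.

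Most genes had a single region. Of the 740 protein-coding genes 77 had 2 or more and 9 had 3 or more. Sept9, a cytoskeletal septin, had 4, all upstream of internal starts and in introns, at 1.33 to 4.60 kb. Zfp36, an RNA-binding protein that speeds the decay of cytokine mRNAs, had 3 upstream of its most 5′ start, at 1.87, 2.92 and 4.00 kb, of which the far pair shared an H3K4me1-marked region of 4515 bp. Evl, Plec and Tpst2 also had 3 each. The widest region (1821 bp) lay in an intron of E2f2, a transcription factor of the cell cycle, 2.62 kb upstream of an internal start, and 56.3% of it was marked. The next widest were 1576 bp in an intron of Prex1, next to the start of a non-coding gene, 1382 bp in Padi2, 1282 bp in Pdcd4 and 1188 bp in Ablim1.

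At the limits of the class, the marked region just inside 1 kb lay 1001 bp downstream of Kri1 and the one just outside 996.5 bp upstream of Fbxo33. At the far limit the one just inside lay 4994 bp upstream of Ifrd1 and the one just outside 5006 bp downstream of Chd1. The smallest overlap with the mark was 8 bp, in a 700 bp region upstream of Gm5292. The nearest miss was an unmarked region downstream of Rab8b with a gap of 8 bp to the mark. Of the 550 unmarked flanking regions 122 (22.2%) had H3K4me1 under 1 kb away, and their median gap to it was 9325.5 bp.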

How the data were processed

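Reads had been aligned by the authors to mm9 with ELAND, and uniquely aligned reads of the repeats were joined and used for peak calling with MACS against NIS, with the larger read set scaled to the smaller. The deposited lists give the start and end positions of peaks in bp and no score, so depth and repeat spread cannot be seen, and regions in repeated sequence are underrepresented. Distances were measured from region centres to 86803 TSS positions of GENCODE vM1, upstream or downstream by strand, with sequence of the same assembly (NCBIM37). Overlap needed 1 bp. Motifs were searched on both strands in the central 200 bp. Functions were checked on simulated data. Intervals are at the 95% level.

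The members and the 9 gene lists were chosen with earlier results of these data known. Named genes were the 4 of each list and the 5 of all genes with most regions, the 5 widest regions and those next to the limits. For sequences, the first genes of each list were taken in turn. Scripts ran in Python 3.11.15 with pandas 2.3.3 and NumPy 2.4.6 (order statistics of medians with SciPy 1.17.1, plots in matplotlib 3.10.9). Peak heights were not analysed here.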

Additional observations from a re-analysis of the deposited data

How the results depend on the processing

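Of 70 alternatives chosen at the outset for shares, medians and the number of regions, 39 stayed within the interval of the value reported (for the number, within 1.5 times it) and 31 moved beyond it. The cause was not tested except where the setting itself narrows the class or window. A further 16, added after seeing the data, concern the difference in marked share between upstream and downstream, and in 12 of them its interval stayed above 0. Over the whole class this difference, 4.86 points, was −1.16 with the class begun at 2 kb (69.0% upstream, 70.1% downstream), with an interval that included 0. Its interval also included 0 with the class extended to 10 kb (2.93), with Runx3-bound regions closer than 1 kb merged (3.85) and with H3K4me1-marked regions of at least 1 kb only (3.53). With 1 start per protein-coding gene the regions numbered 583, with 47.3% upstream, 62.0% of upstream and 50.6% of downstream regions marked, an ETS motif in 65.4%, a marked TSS in 12.3% and a Runx3-bound TSS in 16.3%. With starts of protein-coding transcripts only 56.8% of downstream regions were marked. With the class cut at 3 kb there were 573 regions, 53.6% upstream, with 55.5% of downstream regions marked and a marked TSS in 27.1%. With the class begun at 2 kb 47.4% of 722 regions lay upstream, against 50.4%, and 14.4% had a marked TSS. Extended to 10 kb there were 1891 regions and 66.2% of downstream regions were marked. With the centre inside the mark required, 56.7% of upstream and 50.6% of downstream regions were marked, with at least 50% of the region inside it required 60.0% and 53.1%, and with H3K4me1-marked regions of at least 1 kb only 63.8% upstream. In the central 100 bp a RUNX motif was found in 56.6%, TGTGGT in 40.7%, ETS in 46.3% and AP-1 in 3.21%, and in whole regions in 94.7%, 80.0%, 91.8% and 16.1%. With H3K4me1-marked regions closer than 1 kb merged, their median width was 2857 bp. The excess of marked regions upstream at 1 to 2 kb lay between 14.6 and 27.4 percentage points in its 6 settings, the highest with 1 start per protein-coding gene and above the interval reported (8.83 to 25.2). No paired analysis was possible because the lists were called on joined reads. The region lists hold no depth, so whether an unmarked region lacked the mark or lacked reads could not be told apart.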
